A study of Mus musculus with 9 samples.

Results

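Chromatin in acute promyelocytic leukemia (APL) is written and read by enzymes, some of which the PML/RARα fusion protein brings to its target genes, and the mRNAs of 39 genes of this kind were followed in APL cells of mice given all-trans retinoic acid (ATRA) or arsenic trioxide (ATO). The genes were chosen by name as corepressors, Polycomb subunits, DNA and histone modifying enzymes and coactivators, and all 39 were found among the 24364 genes measured. GFP-positive leukemia cells were sorted from the bone marrow of syngeneic FVB/NJ recipients, which were 6 to 10 weeks old at transplantation and may have been sublethally irradiated, and profiled by polyA RNA sequencing. The cells came from hMRP8-PML/RARα transgenic mice, in which a myeloid promoter drives the fusion, and carried GFP from the MigR1 retroviral vector. The 3 control, 3 ATRA and 3 ATO libraries therefore all held the fusion and the GFP vector. ATRA was given at 10 mg/kg and ATO at 4 mg/kg by daily intraperitoneal injection for 6 days once leukemia was overt, and whether the controls received solvent is not stated. Whether these recipients were irradiated, and whether each library came from a separate animal, were not given in the sources used here, so p-values here speak only to the spread among these libraries.

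In the absence of ligand, PML/RARα sits on retinoid target genes and recruits the NCoR and SMRT corepressors with histone deacetylases, together with Polycomb and DNA methyltransferases, and its targets stay silent. Retinoic acid changes the shape of the receptor part of the fusion so that corepressors leave and coactivators with acetyltransferase activity bind, while arsenic binds the PML part and leads to degradation of the protein. These are exchanges of proteins on chromatin. The mRNA levels reported here show how much transcript of each partner the cells held, and say nothing of where the proteins were.

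Levels are given as scaled reads, that is reads per gene divided by a size factor per library, and levels of different genes are compared only per kilobase of transcript. A gene was called changed when limma gave a Benjamini-Hochberg adjusted p under 0.05 over all 12101 genes tested and the fold change exceeded 1.5. Of the 39 genes, 38 had at least 10 scaled reads in at least 3 libraries and were tested. The exception was Tet1, which encodes a dioxygenase of methylated cytosine and had 3, 5 and 5 reads in the controls, no read in any ATRA library and 2, 1 and 0 reads with ATO. A count of 0 over the ATRA group allows up to 3 reads there, so Tet1 lay at the edge of detection in every group.

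Depth ran from 12192491 reads on genes in ATO 3 to 25511738 in ATO 2. The libraries also differed in how long transcripts fared against short ones, and the 38 tested genes had a median transcript length of 4513 bases beside 2950.0 bases for all tested genes. With each doubling of transcript length the log2 level moved by 0.02, 0.27 and 0.14 in controls, by 0.06, 0.04 and -0.16 after ATRA and by 0.03, -0.03 and -0.37 after ATO, relative to the mean of the 9 libraries over 11559 genes. ATRA 3 and ATO 3 were thus low and control 2 was high for long transcripts. Over all tested genes the log2 fold change fell by 0.16 per doubling of length in ATRA against control and by 0.27 in ATO against control. Results are therefore also given with each library's linear trend on length removed, and without these libraries.

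The cells carried the markers of the granulocyte lineage in abundance, with a summed level of 346384 to 569394 scaled reads over 12 promyelocyte and granulocyte markers in controls, 553247 to 628168 after ATRA and 556848 to 739297 after ATO. Of these 12, ATRA lowered 1 and ATO lowered 1 and raised 1. Markers of other cells were scarcer and lower after treatment. Of 14 tested T and NK cell markers, 10 fell with either drug (summed level 523 to 649.5, 211 to 299 and 247 to 295 in control, ATRA and ATO libraries). Of 8 basophil, eosinophil and mast cell markers, 7 fell with either drug (1689 to 3529, 374 to 518 and 528 to 663). Of 11 macrophage markers, 6 fell with ATRA, and with ATO 8 fell and 1 rose (9264 to 16526, 5949 to 8329 and 6569 to 10092). Of 10 stroma and endothelium markers, 7 fell with either drug, while their sum was carried by Vim (16703 to 19419, 14392 to 20673 and 17225 to 21664). Of 5 tested B cell markers 2 fell with either drug (244 to 417, 122 to 152 and 109.9 to 118), and of 4 tested erythroid markers 1 fell with ATRA (70.1 to 124, 22.7 to 36.4 and 29.5 to 55.2). Both kinds were sparse, with Ms4a1, Pax5 and Ebf1 without a read in either treated group, Cd8a and Ncr1 of the T and NK list without one in the ATO group, and Hba-a1 and Hbb-b1 without a read anywhere. Of 6 megakaryocyte markers, 2 fell with ATRA and 5 with ATO (969 to 1176, 347 to 521 and 434 to 555). The part of these cells in the results below was not tested, and in bulk RNA fewer cells of a type and less RNA per cell cannot be told apart.

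ATRA changed none of the 38 genes by this rule, and ATO lowered 3 of them, Tet2, Suz12 and Tbl1xr1. For ATRA against control, 0 were called higher, against 1.34% of all tested genes, and 0 lower, against 4.26%. At an unadjusted p under 0.05 with the same fold change, 0 were higher and 3 were lower (Dnmt3a, Tet2 and Ncoa1), and DESeq2 and edgeR on the recovered reads also called 0 in either direction. Of all 12101 tested genes, that unadjusted rule gave 552 higher and 1102 lower. DESeq2 called 264 of them higher and 708 lower, and edgeR 152 and 606. For ATO against control, 0 were called higher, against 6.13% of all genes, and 3 lower, which is 7.89% of the 38, against 8.55% of all genes. At an unadjusted p under 0.05 with the same fold change, 8 were lower and 0 higher with ATO, while DESeq2 called 5 lower and edgeR 3 lower, and neither called any higher. Of all 12101 tested genes, that unadjusted rule gave 1944 lower and 1165 higher with ATO. DESeq2 called 1421 of them lower and 903 higher, and edgeR 1217 and 601. The share of these genes called with ATO was near that of genes at large, and so is not a result about chromatin genes as a class. The median log2 fold change of the 38 genes was -0.11 with ATRA and -0.21 with ATO, beside -0.01 for all tested genes in both comparisons. The ATRA and ATO comparisons share their 3 controls.

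**Figure D1:**
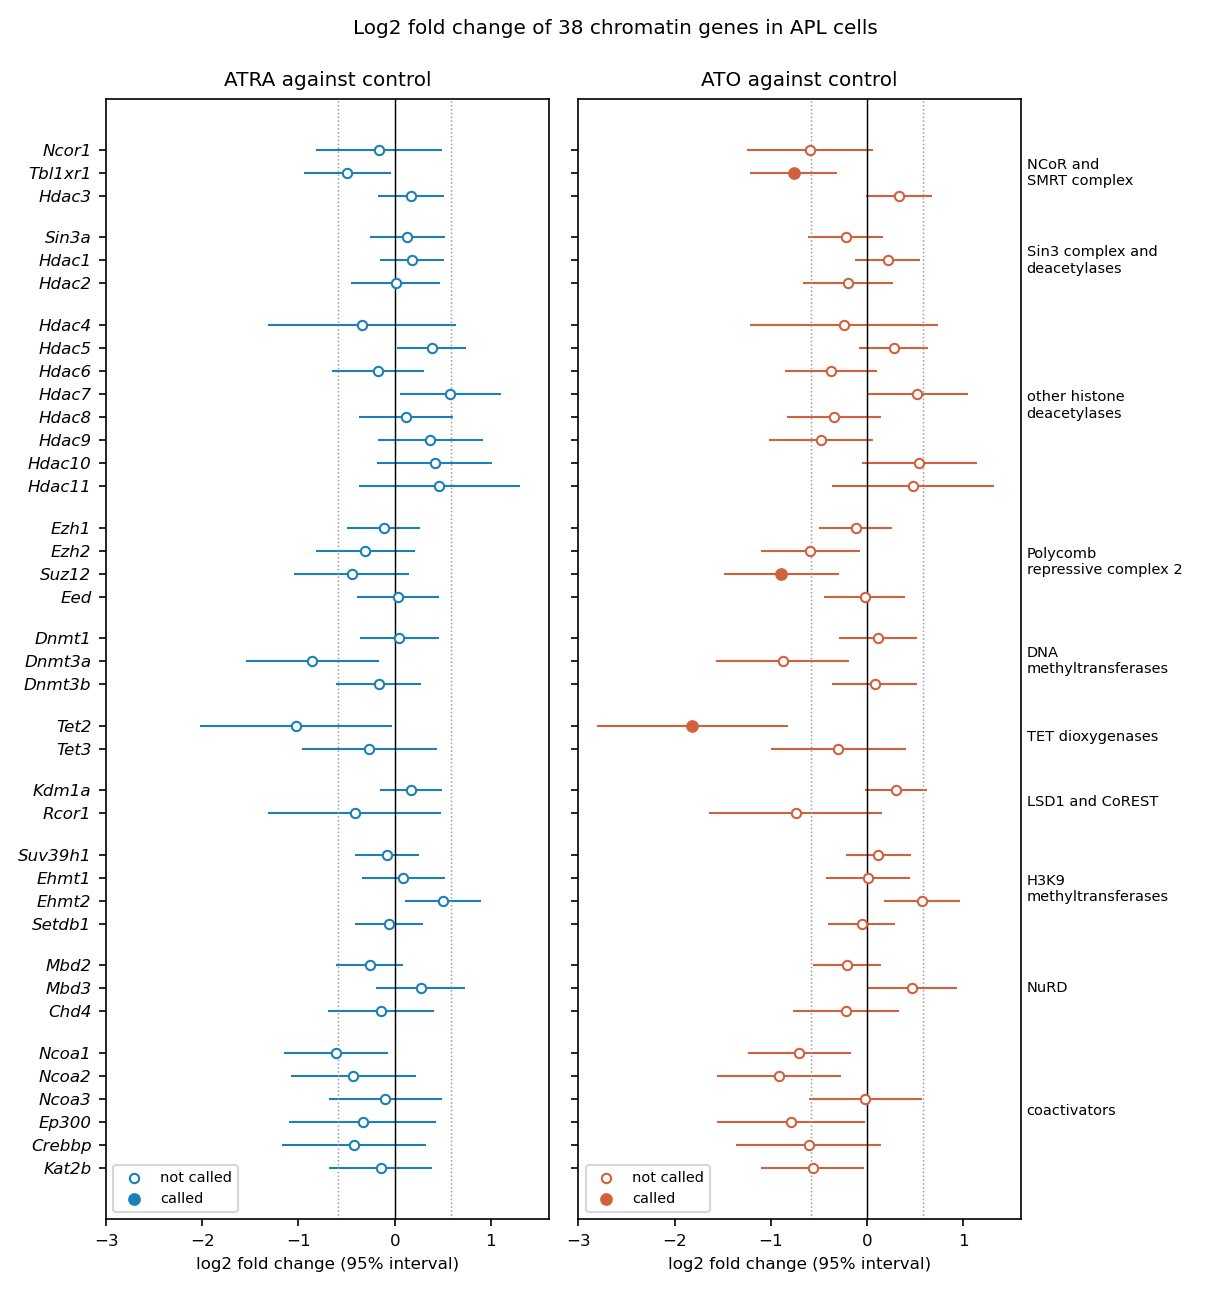
Log2 fold change of each of the 38 tested genes (points, with 95% intervals from limma) in ATRA against control (left) and ATO against control (right), grouped by complex. Filled points passed the call, and dotted lines mark a 1.5-fold change. Tbl1xr1, Suz12 and Tet2 are the filled points, all with ATO and all below 0.

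With ATO the calls depended on length and on single libraries. Once the length trend was removed, 2 genes stayed lower (Suz12 and Tet2, against 8.64% of all genes), Tbl1xr1 was no longer called, and 1 was called higher (Ehmt2, against 6.12%). With ATRA the same step gave 0 higher and 0 lower, against 1.77% and 4.64% of all genes. The intervals show what these libraries could resolve. In ATRA against control, 11 of the 38 had a 95% interval wholly inside a 1.5-fold change in either direction, and 9 did so in ATO against control. With ATRA, 7.89% of the 38 had all treated libraries above all controls and 7.89% below, against 11.5% and 12.5% of all tested genes. With ATO these shares were 10.5% and 18.4%, against 15.9% and 16.4%. Separation of the groups, given for single genes below, was thus common among genes at large.

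In the receptor corepressor complex, 1 of the 3 genes was called, Tbl1xr1, lower with ATO. Of all tested genes 8.55% were called lower with ATO. Of the tested genes with transcripts longer than the median member of the list, 16.1% were. A single call among 3 genes is thus not a result about the complex. Tbl1xr1 encodes a WD40 subunit that couples NCoR and SMRT to the ubiquitin machinery during the exchange for coactivators. It lies on chromosome 3 (mm9, 21975574 to 22115516, plus strand). Its scaled reads were 821, 1442 and 1288 in controls, 777, 912 and 771 after ATRA and 728, 669 and 642 after ATO. Every ATO library lay below every control, with control 1 the nearest, and the ATRA libraries overlapped the controls. The log2 fold change was -0.76 ± 0.21 (SE, n = 3) with ATO (limma adjusted p = 0.0317) and -0.49 ± 0.21 with ATRA (adjusted p = 0.218). This transcript is 8127 bases long, and without the length trend its ATO value was -0.36 (adjusted p = 0.171). Without ATRA 3 and ATO 3 it was -0.72 (adjusted p = 0.0966), and without control 2 as well -0.56 (adjusted p = 0.0829). Leaving out control 2, control 3, ATO 2 or ATO 3 alone each ended the call (-0.75 to -0.60, adjusted p = 0.0805 to 0.14), while without control 1 the gene was called lower with ATRA too (-0.74, adjusted p = 0.0286).

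Ncor1, the corepressor scaffold itself, had 2456, 5338 and 3161 scaled reads in controls, 3623, 3583 and 2276 after ATRA and 2716, 2818 and 1588 after ATO. Control 2 stood far above the other controls, and the groups overlapped. Its log2 fold change with ATO was -0.59 (95% interval -1.24 to 0.06, adjusted p = 0.179), and -0.15 without the length trend. Hdac3, the deacetylase that NCoR and SMRT activate, had 1223, 1151 and 959 scaled reads in controls, 1317, 1259.7 and 1167 after ATRA and 1292, 1434 and 1449 after ATO. The ATO libraries all lay above the controls, by a log2 fold change of 0.33 that was not called (95% interval -0.01 to 0.67, adjusted p = 0.155). The Hdac3 transcript is short, at 2004 bases.

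The Sin3 complex, another platform for deacetylases, held no called gene. Sin3a, the scaffold, had 5629.6, 7965 and 6816 scaled reads in controls, 7462, 7597 and 7062 after ATRA and 7021, 5277 and 5236 after ATO. All groups overlapped, and the log2 fold changes were 0.13 (95% interval -0.26 to 0.52) with ATRA and -0.22 (-0.61 to 0.17) with ATO. Hdac1, a class I deacetylase shared by Sin3, NuRD and CoREST, had 2038, 2393 and 2146 in controls, 2262, 2391 and 2804 after ATRA and 2601, 2371 and 2648 after ATO. The controls overlapped both drug groups, and its interval with ATO ran from -0.12 to 0.55, so a 1.5-fold change in either direction lay outside it. Hdac2, its close relative, differed by 0.01 with ATRA and -0.20 with ATO and was not called. Per kilobase Hdac1 was the more abundant of the pair in every library, with a ratio to Hdac2 of 4.02 to 5.95 in controls, 5.31 to 5.59 after ATRA and 5.82 to 7.27 after ATO.

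Of the 8 other deacetylases none was called with either drug. Hdac7, a class IIa enzyme with a role in lymphoid and endothelial cells, had the most positive value with ATRA (0.58 ± 0.24, adjusted p = 0.218). Its scaled reads were 960.4, 1327 and 702 in controls, 1674, 1655 and 1071 after ATRA and 1239, 1562 and 1369 after ATO, and the groups overlapped through control 2 and ATRA 3. Without control 2, ATRA 3 and ATO 3 it was called higher with both drugs, at 1.02 with ATRA (adjusted p = 0.00274) and 0.76 with ATO (adjusted p = 0.0153). Hdac5, of the same class, had 2329, 2144 and 1656 scaled reads in the controls, and every ATRA library (2451 to 2795) and every ATO library (2378 to 2601) lay above them. Its log2 fold changes of 0.38 and 0.28 were not called (adjusted p = 0.229 and 0.241). The class IIa gene Hdac4 had 406, 723 and 398 scaled reads in controls, 553, 457 and 226 after ATRA and 568, 675 and 187 after ATO. The lowest library of each treated group was the third, and the ATO value of Hdac4 turned from -0.23 to 0.62 (adjusted p = 0.0323) when control 2, ATRA 3 and ATO 3 were left out. Hdac6, Hdac8, Hdac9, Hdac10 and Hdac11 lay between -0.18 and 0.47 with ATRA and between -0.48 and 0.54 with ATO, and Hdac11 was the scarcest tested gene of the list, at 8.64 scaled reads per kilobase in the controls. These genes were chosen for per-library values after their values were seen.

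**Figure D2:**
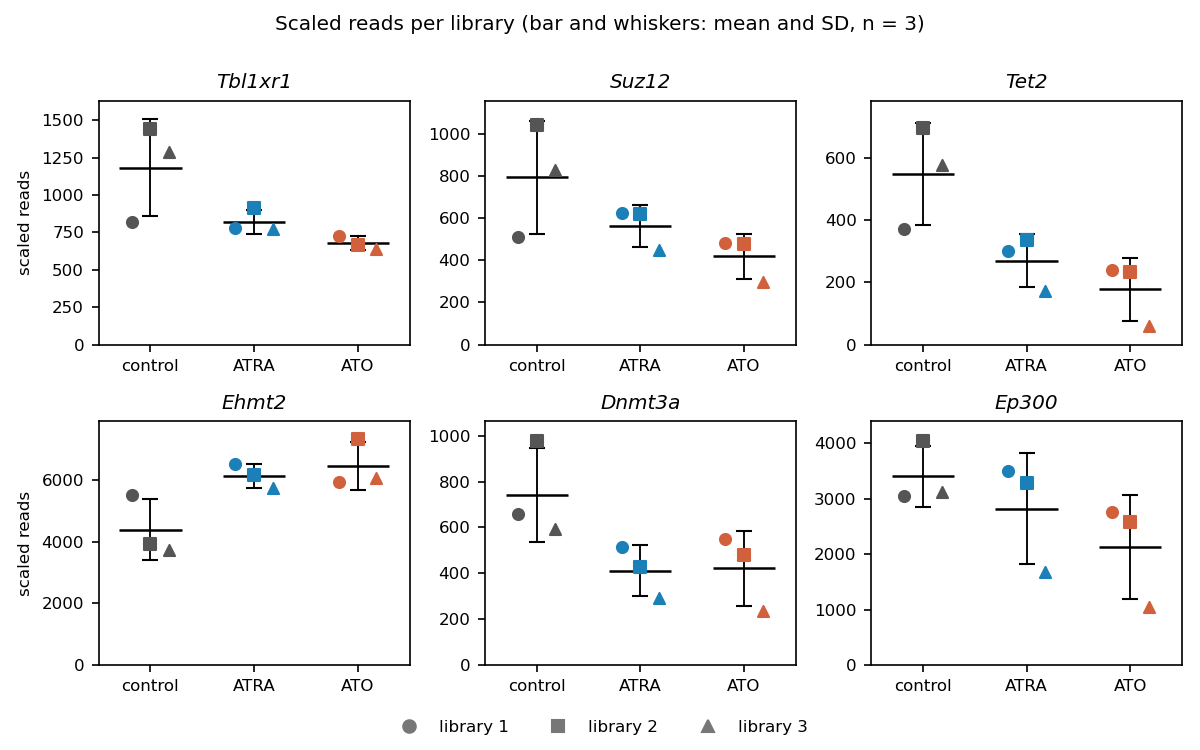
Scaled reads in each library (points, shaped by library number), with the mean and SD of each group of 3 (bars and whiskers), for Tbl1xr1, Suz12, Tet2, Ehmt2, Dnmt3a and Ep300. Library 3 is the lowest of its group in both treated groups for Tbl1xr1, Suz12, Tet2, Dnmt3a and Ep300, and all treated libraries lie above the controls for Ehmt2.

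Within Polycomb repressive complex 2, which methylates histone H3 at lysine 27, Suz12 fell with ATO while its partners were not called. Suz12 encodes the core subunit that holds the complex together and is found on chromosome 11 (mm9, 79806608 to 79847625, plus strand). It had 509, 1044 and 827 scaled reads in controls, 624, 618 and 450.3 after ATRA and 484, 477 and 297 after ATO. The ATO libraries lay below all controls, though ATO 1 and control 1 were close, and the ATRA libraries overlapped the controls. The log2 fold change was -0.89 ± 0.28 with ATO (adjusted p = 0.0474) and -0.45 ± 0.28 with ATRA (adjusted p = 0.408). Removing the length trend left it lower with ATO (-0.73, adjusted p = 0.0444), and its transcript has 4373 bases. Removing a trend on GC content as well left -0.45 (adjusted p = 0.111). Without ATRA 3 and ATO 3 the value was -0.66 (adjusted p = 0.153), and without control 2 as well it was -0.43 (adjusted p = 0.179). The Suz12 call lay at the threshold. It was lost without a filter (adjusted p = 0.0511), at a mean of at least 50 (0.0547) and on leaving out any one of control 2, control 3, ATRA 1, ATRA 2, ATO 2 or ATO 3 (adjusted p = 0.0621 to 0.173).

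Eed, which binds the methylated histone tail, had 412, 678 and 591 scaled reads in controls, 526, 583 and 582 after ATRA and 559.9, 513 and 546 after ATO. All treated libraries lay inside the range of the controls. Ezh2, the main methyltransferase of dividing cells, had 456, 915 and 657 in controls, 508, 508 and 560.0 after ATRA and 521, 374 and 414 after ATO. Its groups overlapped, with a log2 fold change of -0.59 with ATO that missed the call (95% interval -1.10 to -0.07, adjusted p = 0.103). Ezh1, the methyltransferase typical of resting cells, differed by -0.11 with ATRA and -0.12 with ATO. Per kilobase the ratio of Ezh2 to Ezh1 was 0.92 to 2.17 in controls, 1.15 to 1.31 after ATRA and 0.86 to 1.19 after ATO, ranges that overlap.

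Among the DNA methyltransferases, the maintenance enzyme was the most abundant, with no call, and the de novo enzyme Dnmt3a was low in every treated library without being called. Dnmt1, which copies methylation after replication, had 9501, 11194 and 8701 scaled reads in controls, 11045, 10774 and 8626 after ATRA and 12102, 11298 and 8589 after ATO. The groups overlapped, and the intervals ran from -0.36 to 0.46 with ATRA and -0.29 to 0.52 with ATO. Dnmt3b, a de novo enzyme, had 359, 227 and 319 in controls, 282, 261 and 248 after ATRA and 306, 331 and 304 after ATO, with all treated libraries inside the control range. Dnmt3a, the other de novo enzyme and a gene often mutated in human myeloid leukemia, had 658, 975 and 593 in controls, 514, 426 and 292 after ATRA and 547, 480.4 and 235 after ATO. No treated library reached the lowest control. The log2 fold changes were -0.86 ± 0.32 with ATRA (adjusted p = 0.163) and -0.87 ± 0.32 with ATO (adjusted p = 0.0775), and DESeq2 called the ATO difference (adjusted p = 0.0448). Its transcript is 9685 bases long, and without the length trend the values were -0.57 and -0.40. Without ATO 3 the ATO value was -0.50 (adjusted p = 0.276).

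The TET dioxygenases oxidize methylated cytosine and so oppose the methyltransferases. Tet2, whose loss of function is frequent in human myeloid neoplasms, had the largest difference of the 38 genes in both comparisons, and lies on chromosome 3 (mm9, 133126643 to 133207354, minus strand). It had 371, 697 and 578 scaled reads in controls, 301, 337 and 173 after ATRA and 239, 234 and 60.7 after ATO. Every treated library lay below every control, and ATO 3 was the lowest by a wide margin. The log2 fold change was -1.81 ± 0.46 with ATO (adjusted p = 0.0247), a level 0.284 times that of the controls, and -1.03 ± 0.46 with ATRA (adjusted p = 0.246).

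The Tet2 transcript is 9179 bases long, and its difference with ATO was still called with the length trend removed, at -1.36 (adjusted p = 0.0171), and without trends on both length and GC it was -1.27 (adjusted p = 0.0249). Without ATRA 3 and ATO 3 it was -1.16 (adjusted p = 0.0264), and without control 2 as well -0.97 (adjusted p = 0.00913). Leaving out ATO 3 alone gave -1.16, over 1.5 times smaller, and the call was lost (adjusted p = 0.0548). It was also lost without control 2 (-1.62, adjusted p = 0.061) and without control 3 (-1.75, adjusted p = 0.109). Tet3, at 10904 bases the longer transcript, had 2402, 2994 and 2143 scaled reads in controls, 2800.1, 2409.5 and 1324 after ATRA and 2579, 2704 and 1189.7 after ATO. Only the third library of each treated group lay below the controls, and the log2 fold changes of -0.26 and -0.30 were not called. The ratio of Tet2 to Tet3 per kilobase was 0.184 to 0.32 in controls, 0.128 to 0.166 after ATRA and 0.0606 to 0.11 after ATO. The 3 ranges did not overlap.

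Ehmt2 had the largest positive value of the 38 genes with ATO, and encodes G9a, the enzyme that adds methyl groups to histone H3 at lysine 9. Ehmt2 lies on chromosome 17 (mm9, 35035414 to 35050997, plus strand), with a transcript of 4026 bases. It had 5518, 3932 and 3735 scaled reads in controls, 6509.9, 6154 and 5743 after ATRA and 5953, 7340.3 and 6071 after ATO. All treated libraries lay above all controls. The difference with ATO, 0.57 ± 0.18, fell short of the call in both fold change and adjusted p (0.0509), and that with ATRA was 0.50 ± 0.18 (adjusted p = 0.148). Without the length trend the ATO value was 0.71 (adjusted p = 0.0194) and was called, while removal of the GC trend as well brought it to 0.32 (adjusted p = 0.043), under the fold change. Control 1 had the highest control value, and without it both drugs passed the call, at 0.68 with ATRA (adjusted p = 0.0324) and 0.75 with ATO (adjusted p = 0.0124). The other H3K9 methyltransferases Ehmt1, its heterodimer partner, Suv39h1, which serves constitutive heterochromatin, and Setdb1, which KAP1 recruits, lay between -0.08 and 0.12 in both comparisons. For Setdb1 both intervals lay within -0.41 and 0.30.

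LSD1, encoded by Kdm1a, removes methyl groups from histone H3 at lysine 4 and works with the CoREST scaffold encoded by Rcor1. Kdm1a had 1015, 942 and 963 scaled reads in controls, 1047, 1073 and 1163 after ATRA and 1285, 1121 and 1186 after ATO. Both treated groups lay wholly above the controls, by log2 fold changes of 0.17 and 0.30 that were not called (adjusted p = 0.567 and 0.171). Rcor1, with a longer transcript of 5685 bases, went the other way at -0.42 and -0.74, and was not called. ATRA 3 (369) and ATO 3 (185) lay below the control range of 559 to 948, and the other treated libraries (626 to 656) lay inside it.

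The NuRD complex joins a chromatin remodeler to deacetylases and methyl-CpG binding proteins. Mbd3, a shared subunit, differed by 0.27 with ATRA and 0.47 with ATO (adjusted p = 0.527 and 0.141), and is the shortest transcript of the list at 1662 bases. Mbd2, which binds methylated CpG, differed by -0.26 and -0.20. Chd4, the remodeling ATPase, had 9653, 10114 and 8540.0 scaled reads in controls, 10246, 9815 and 6167 after ATRA and 10277, 9466 and 5433 after ATO. ATRA 3 and ATO 3 were the only libraries outside the control range on the low side, and the values of -0.14 and -0.22 were not called.

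All 6 coactivator genes had negative values with both drugs, and none was called. Of all tested genes in their range of transcript length, 72.2% were negative with ATRA and 75.9% with ATO. With the length trend removed 5 of the 6 were negative with each drug, Ncoa3 being at 0.13 and 0.36. By that step 1148 of the 2107 tested genes in this length range were negative with ATRA and 1176 with ATO. The p160 coactivators bind ligand-bound nuclear receptors directly. Ncoa1 had 699.6, 910.2 and 874 scaled reads in controls, 592, 574 and 463 after ATRA and 689.9, 565 and 331 after ATO. No treated library reached the lowest control, and the log2 fold changes were -0.61 ± 0.25 with ATRA (adjusted p = 0.206) and -0.70 ± 0.25 with ATO (adjusted p = 0.0711). The ATO value was -0.40 without ATO 3 and -0.34 without the length trend. Ncoa2 had 705, 1167 and 906 in controls, 778, 774 and 507 after ATRA and 652, 576 and 294 after ATO. ATRA 3 lay below all controls, while ATRA 1 and 2 lay inside their range. Every ATO library lay below all controls, at -0.92 ± 0.30 (adjusted p = 0.0545 by limma and 0.0236 by DESeq2). This value was -0.56 without ATO 3 and -0.51 without the length trend. Ncoa3 differed by only -0.10 and -0.02, with a transcript of 7531 bases, beside 7328 bases for Ncoa1.

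Ep300 and Crebbp encode the paired acetyltransferases that p160 proteins bring to chromatin. Ep300 had 3050.3, 4039 and 3125 scaled reads in controls, 3506, 3291 and 1669.9 after ATRA and 2762, 2576 and 1044 after ATO. The ATO libraries lay below the controls, and ATRA 3 lay below while ATRA 1 and 2 lay inside their range. The log2 fold changes were -0.33 (95% interval -1.10 to 0.43) with ATRA and -0.79 (-1.56 to -0.03, adjusted p = 0.133) with ATO. Ep300 has a transcript of 8749 bases, and its values were -0.07 and -0.36 without the length trend. Without ATRA 3 the ATRA value was 0.0084, and without ATO 3 the ATO value was -0.34. Kat2b, an acetyltransferase known as PCAF, had 574, 1083 and 787 in controls, 667, 755 and 714 after ATRA and 689, 550.0 and 397 after ATO. The groups overlapped, and the ATO value of -0.57 was not called (adjusted p = 0.126). Crebbp followed Ep300 at -0.42 and -0.61, and the ratio of Ep300 to Crebbp per kilobase stayed between 2.08 and 2.69 in all 9 libraries.

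A further comparison set the corepressors that PML/RARα recruits beside the coactivators that replace them. The 15 corepressor genes (the NCoR and Sin3 genes above with Ezh2, Suz12, Eed, Dnmt1, Dnmt3a, Suv39h1, Setdb1, Mbd3 and Chd4) had a median log2 fold change of -0.06 with ATRA and -0.20 with ATO, and 0 and 2 of them were called, both lower. The 2 called with ATO are 13.3% of the 15, against 8.55% of all tested genes, and 1 was called (Suz12) with the length trend removed. The 6 coactivators had medians of -0.38 and -0.65 with 0 called. Corepressor transcripts had a median length of 4373 bases and coactivator transcripts 7519 bases. Over the 2107 tested genes between the shortest and the longest coactivator, the medians were -0.21 and -0.37. Without the length trend the corepressor medians were 0.06 and 0.01 and the coactivator medians -0.12 and -0.35, beside -0.01 and -0.02 for all tested genes. For the 2107 genes in the coactivator length range they were -0.04 and -0.09, so a linear trend left some of the length difference.

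Library by library, the coactivator median was -0.22, 0.30 and 0.00 in the controls, relative to their mean. The coactivator median relative to the control mean was -0.12 and -0.10 on the log2 scale in ATRA 1 and 2, inside the spread of the controls, and -0.83 in ATRA 3. It was -0.24 and -0.45 in ATO 1 and 2, the first of them level with control 1, and -1.39 in ATO 3, so the third library was the lowest of each treated group. The corepressor median stayed between -0.30 and 0.06 in the same 6 libraries. Removing each library's length trend brought the coactivator median to 0.00, 0.00 and -0.39 with ATRA and to -0.10, -0.21 and -0.68 with ATO. ATRA 3 and ATO 3 still had the lowest coactivator median of their groups.

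**Figure D3:**
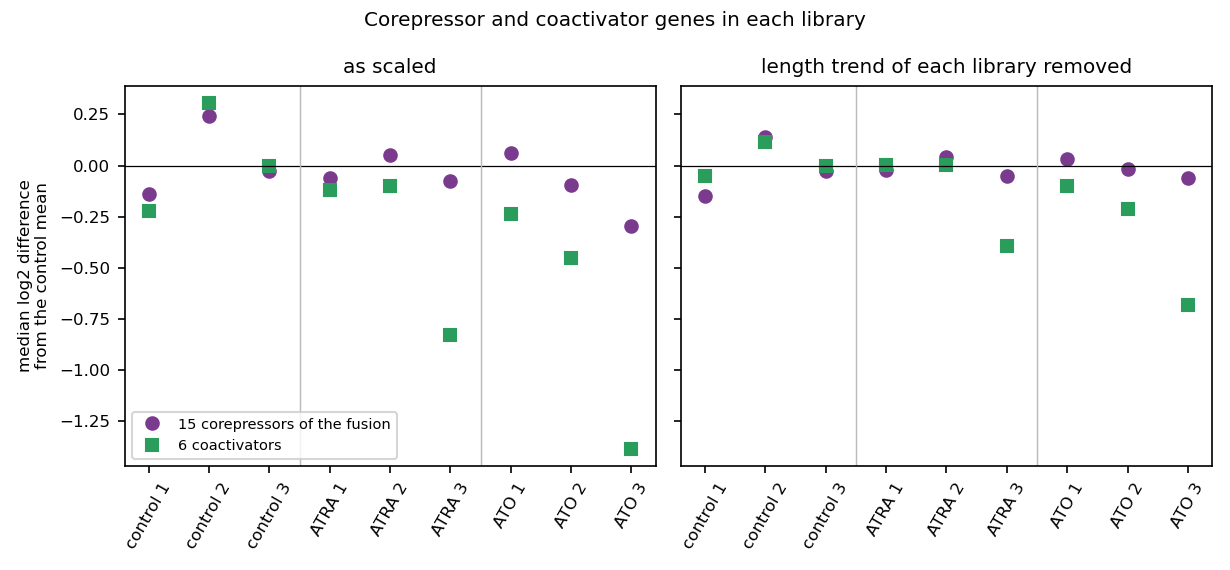
Median log2 difference from the control mean over the 15 corepressor genes (circles) and the 6 coactivator genes (squares) in each library, as scaled (left) and with the linear trend on transcript length removed from each library (right). Coactivators were lowest in ATO 3 (-1.39 as scaled, -0.68 with the trend removed) and ATRA 3 (-0.83 and -0.39), and the corepressor medians stayed within 0.30 of the control mean.

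Across the 38 genes the log2 fold change went with transcript length, with a Pearson r of -0.56 with ATRA and -0.61 with ATO (Spearman rho -0.56 and -0.62). These points are genes of the same 9 libraries and not independent replicates. The slope among the 38 genes was -0.27 per doubling of length with ATRA and -0.41 with ATO, beside -0.16 and -0.27 over all genes. Of the 19 genes longer than 4513 bases, 14 were negative with ATRA and 16 with ATO, and among the 19 shorter ones 8 and 9 were negative. In all tested genes longer than this the medians were -0.22 and -0.39, beside -0.16 and -0.57 for the long members. ATO 3 was the lowest of the 9 libraries for 18 of the 19 long genes, and control 2 the highest for 13 of them. Over all tested genes of any length, ATO 3 was the lowest for 22.9% and control 2 the highest for 24.5%. The shares among long genes alone were not computed. Long transcripts at large were low in ATO 3 and high in control 2, so whether these counts are particular to the 19 long members cannot be told.

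**Figure D4:**
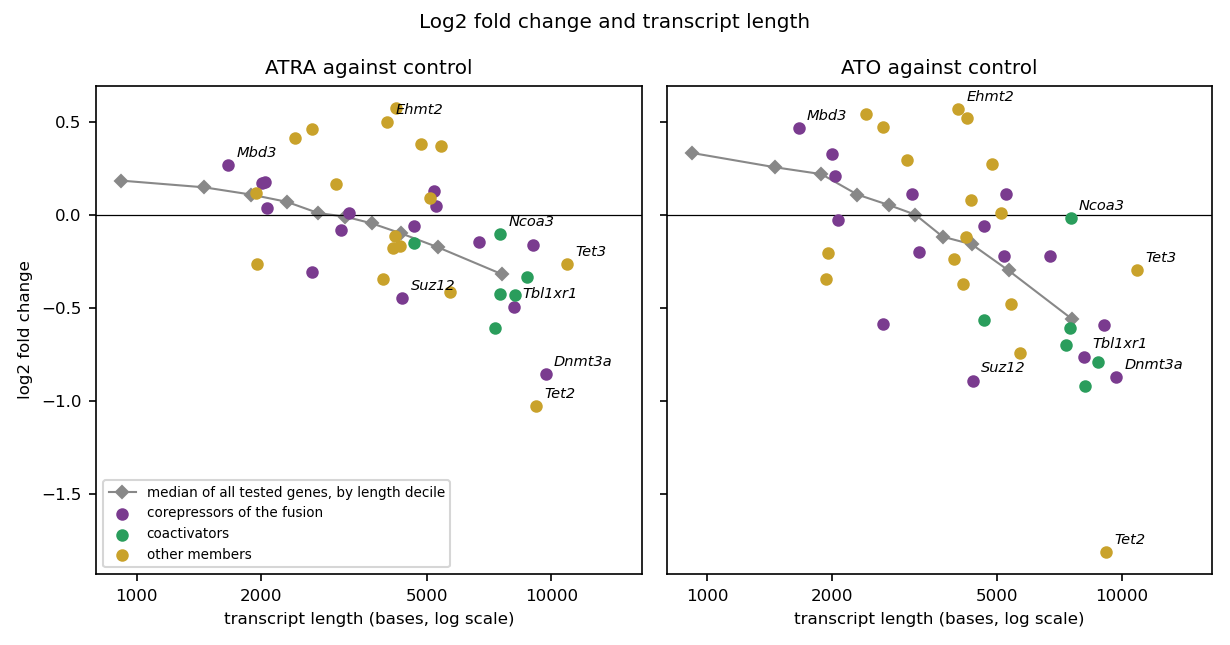
Log2 fold change against transcript length (bases, log scale) for the 38 genes in ATRA against control (left) and ATO against control (right), colored by corepressor, coactivator or other role. Diamonds joined by a line are medians of all tested genes in length deciles. Long genes lie lower than the short ones in both panels, Tet2 lies far below the line with ATO, and Ncoa3 and Tet3 lie above it.

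The drugs were then set against each other. In ATO against ATRA, 0 of the 38 genes were called higher, against 0% of all tested genes, and 0 lower, against 0%. At an unadjusted p under 0.05 with the fold change, 1 was lower with ATO and 0 were higher, and DESeq2 and edgeR called 0. That gene was Hdac9, a class IIa deacetylase, with 295, 274 and 309 scaled reads with ATRA and 212, 179 and 112 with ATO. The ranges did not overlap (-0.85, adjusted p = 0.447), and 10.5% of the 38 and 7.25% of all tested genes lay apart in that direction. Tet2 differed by -0.79 between the drugs (adjusted p = 0.794), so its call with ATO and not with ATRA does not show that the drugs differed. Of the 38 intervals, 13 lay wholly within a 1.5-fold change.

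Of 114 other genes of the same complexes and pathways, all tested, 1 fell and 0 rose with ATRA, and 8 fell and 6 rose with ATO. With ATRA that is 0.877% of the 114 lower, against 4.26% of all tested genes, and with ATO 7.02% lower and 5.26% higher, against 8.55% and 6.13%. These shares are at or below those of genes at large, so the genes named next are single genes and not a result about the pathways. The gene lower with ATRA was Chd3, a NuRD ATPase and sister of Chd4. Its scaled reads were 192, 179.8 and 171 in controls, 24.0, 15.1 and 10.2 after ATRA and 28.1, 19.6 and 13.1 after ATO. Every treated library lay far below the controls, at -3.50 ± 0.37 with ATRA (adjusted p = 0.000148) and -3.19 ± 0.37 with ATO (adjusted p = 0.00049). The ratio of Chd4 to Chd3 per kilobase was 54.2 to 61.0 in controls, 464 to 703 after ATRA and 397 to 524 after ATO. Removing the length trend left -3.28 and -2.83, both called.

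With ATO the lower genes included 3 of 16 histone demethylases, Kdm7a (-1.49, adjusted p = 0.0347), Jmjd1c (-1.74, adjusted p = 0.0346) and Kdm3a (-0.84, adjusted p = 0.04), which belong to the JmjC family. That is 18.8% of the list, against 8.55% of all tested genes and 16.1% of all tested genes longer than 4513 bases, and the listed demethylases have a median length of 6332.5 bases. Jmjd1c had 239, 556 and 319 scaled reads in the controls and 143, 177 and 44.3 with ATO, which did not overlap. Nrip1, a ligand-dependent corepressor of nuclear receptors, was lower at -1.93 ± 0.57 (adjusted p = 0.0416), the 1 change called by limma among 21 NCoR, Sin3 and CoREST partners. At an adjusted p under 0.05 alone, DESeq2 also gave Arid4a, Arid4b, Hmg20b and Zmym2, and edgeR also gave Arid4a and Arid4b. Kat6b, an acetyltransferase of histone H3 (-1.44, adjusted p = 0.0117), Ncoa4, best known as the cargo receptor for ferritin autophagy (-0.85, adjusted p = 0.0197), and Setdb2, a relative of Setdb1 (-0.83, adjusted p = 0.0451), were lower too. All of these kept their calls with the length trend removed.

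The 6 genes higher with ATO were spread over 4 lists. Dnmt3l, a catalytically inactive partner of the de novo methyltransferases in mouse germ cells, had 349, 288 and 249 scaled reads in the controls and 471, 600.1 and 706 with ATO. Every ATO library lay above the controls (1.00 ± 0.22, adjusted p = 0.0131). Trim28, which encodes the corepressor KAP1 that recruits Setdb1, was at 0.63 (adjusted p = 0.0419) and Carm1, an arginine methyltransferase and coactivator, at 0.66 (adjusted p = 0.0299). The acetyltransferase gene Kat8 (0.67, adjusted p = 0.0267) and the sirtuin deacetylase genes Sirt2 (0.61, adjusted p = 0.0458) and Sirt6 (0.66, adjusted p = 0.0446) had short transcripts of 1573 to 1891 bases, and these last 3 were not called once the length trend was removed. Of 7 sirtuins, 2 were higher and 1 lower with ATO at an unadjusted limma p under 0.05. DESeq2 gave an adjusted p under 0.05 for Sirt1, Sirt2 and Sirt6, and edgeR for Sirt1 only. By limma 0 of the 27 PRC2 accessory and PRC1 genes were called with either drug, while at an unadjusted p under 0.05 alone 4 were higher and 2 lower with ATRA and 5 higher and 4 lower with ATO. Of all 12101 tested genes, the same p alone gave 1060 higher and 1261 lower with ATRA and 2007 and 2204 with ATO. DESeq2 gave an adjusted p under 0.05 for 1 of the 27 with ATRA (Cbx6) and 3 with ATO (Jarid2, Bmi1 and Phc1), and edgeR for 0 and 1 (Phc1). With the length trend removed, limma called 1 higher with ATRA (Cbx6) and 1 higher (Kdm2b) and 1 lower (Pcgf5) with ATO. By the same step 1.77% of all tested genes were higher with ATRA, and 6.12% higher and 8.64% lower with ATO.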

How the data were processed

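PolyA RNA of 9 libraries was sequenced. By the study's methods, the authors applied FastQC and cutadapt to the reads, placed unique reads on mm9 with STAR, assigned them to genes with HTSeq-count and ran DESeq2. Versions, annotation and strand setting were not stated in the sources used, so overlapping genes on opposite strands cannot be told apart, and the notes of the submitters list the build hg19 besides mm9. The deposited signal values are the authors' normalized counts, in 2 tables that share the controls. The authors' own log2 fold changes, standard errors, test statistics, p-values and adjusted p-values stand in the same tables and were not used. Each column returned whole reads for 100% of its values (within 0.001) once divided by its lowest step, and controls matched between tables at all 24391 entries. Of these, 27 had symbols turned into dates and were left out (at most 0.173% of a library's reads). Median-of-ratios size factors (0.609 to 1.38) over all 9 libraries scaled the reads.

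The log2 of the scaled reads plus 0.5 was fitted with limma 3.58.1 (R 4.3.3) as 3 groups with an intensity trend, for 12101 genes with at least 10 scaled reads in at least 3 libraries. Fold changes are on that scale, which understates changes of low genes. The median SE of a log2 fold change was 0.23, and intervals used 12.7 degrees of freedom. DESeq2 1.42.0 and edgeR 4.0.16 were run on the recovered reads. Transcript lengths and coordinates are from GENCODE vM1 on mm9, using the longest coding transcript per gene (95.5% of tested genes), and the script language was Python 3.11.15. Alternatives covered the filter, the added value, the scaling, the tool, trends on length and GC, the replicate number, the threshold and each library left out, and the omission of ATRA 3, ATO 3 and control 2 was chosen after seeing the data. The 39 genes and all lists were chosen with earlier results of these data known. Per-library values were given for called genes and for the 2 most abundant uncalled genes per kilobase in the NCoR, Sin3, PRC2, DNA methyltransferase and coactivator groups, and of the pathway lists the called genes were named. Other genes were chosen after their values were seen. The scripts were tested on simulated data.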

Additional observations from a re-analysis of the deposited data

How the results depend on the processing

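The 3 members called lower with ATO were 5 by DESeq2, 1 with length and GC trends removed, 1 in a fit of only the groups compared, 8 at an unadjusted p, 1 at a fold change over 2, 1 without ATRA 3 and ATO 3, and 1 without control 2 as well. Leaving out each library in turn gave 0 to 7, with 7 without control 1, 6 without ATO 1, 1 without ATO 2 and 0 left without control 2, without control 3 or without ATO 3. Of all genes, the 1035 called lower with ATO became 1421 by DESeq2, 902 with length and GC trends removed and 780 with only the groups compared. They became 1944 at an unadjusted p, 775 at a fold change over 2, 560 without ATRA 3 and ATO 3, and 1131 without control 2 as well. Leaving out control 1 gave 1720, ATO 1 996, ATO 2 472, control 2 806, control 3 269 and ATO 3 455. Members called higher with ATO were 1 when centred on the median gene, 1 with the length trend removed, 2 without control 2, ATRA 3 and ATO 3, and 0 to 3 with each library left out (3 without control 1). Of all genes, the 742 called higher with ATO became 863, 740 and 777 in the first 3 of these settings and 1532 without control 1. With ATRA, members called lower were 1 without a filter (Tet1), 3 at an unadjusted p and 0 to 1 with each library left out, and members called higher were 1 without control 2, ATRA 3 and ATO 3 and 0 to 1 with each left out. Of all genes, the 516 lower with ATRA became 902 without a filter and 1102 at an unadjusted p. The 162 higher became 607 without control 2, ATRA 3 and ATO 3. In ATO against ATRA, 1 member was lower at an unadjusted p, beside 289 of all genes. Hdac4 with ATO reversed to 0.62 without control 2, ATRA 3 and ATO 3. The cause of these shifts was not tested. Each tested member under each setting gave 1101 values per comparison. The call, or the lack of one, matched the main fit for 1094 with ATRA, 1045 with ATO and 1100 in ATO against ATRA. With 0 members called in the main fit for ATRA and for ATO against ATRA, these were uncalled genes that stayed uncalled. Such counts therefore do not measure how stable a call was. With ATO 28 calls were lost, all from the 3 called members, and 27 gained.

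Over all genes the 678 calls with ATRA became 1087 without a filter, 264 at a mean of at least 50, 1654 at an unadjusted p, 1570 without control 2, ATRA 3 and ATO 3, and 308 to 857 with each library left out. The 1777 calls with ATO became 1151 at a mean of at least 50, 1132 in a fit of only the groups compared, 793 without ATRA 3 and ATO 3, 3109 at an unadjusted p, 979 at a fold change over 2, and 376 to 3252 with each left out. The 0 calls in ATO against ATRA became 71 by DESeq2, 8 with the length trend removed, 3 with the GC trend too, 115 without control 2, ATRA 3 and ATO 3, 551 at an unadjusted p, and 0 to 29 with each left out.

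Same-numbered libraries correlated at -0.38 to 0.33 in their deviations from the group means, so the numbers were not taken to pair them. With the replicate block, members called lower were 6 with ATO (Dnmt3a, Ncoa2 and Ep300 beside the 3 above) and 1 with ATRA (Dnmt3a), and with the block and the length trend removed 2 were higher with ATO. Of all genes, the block gave 1239 lower with ATO and 550 lower with ATRA. With the length trend removed too, 722 of all genes were higher with ATO.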
